A study of Mus musculus with 20 samples.

Results

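The Hox cluster genes are the 39 mouse genes of the HoxA, HoxB, HoxC and HoxD clusters, on chromosomes 6, 11, 15 and 2, taken here as every gene whose symbol is Hox, a cluster letter and a number, of 55573 genes in the count files. Antisense and opposite-strand genes of the clusters were left out of the 39. RNA was measured in bulk in 20 libraries from C57BL/6 mouse bone marrow, 5 in each of 4 groups sorted by flow cytometry. They were stem cells of the blood, called HSC, and the multipotent progenitors below them, called MPP, each split into cells with the leptin receptor on their surface (Lepr+) and cells without it (Lepr-). HSC were lineage-depleted Sca-1+ c-Kit+ cells that were CD150+CD48-, and MPP were CD150-CD48- cells of the same gate. Each sample came from 2 mice of 7 to 9 weeks, with 1000 to 8000 cells, and no mouse carried a labelled mutation or treatment. Samples pooled both mice, so single animals cannot be read.

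Hox genes encode homeodomain transcription factors that set positional identity along the body axis in the embryo. Genes of the same number in different clusters are paralogs, and their order on the chromosome follows the order of their expression along the axis. In blood formation, genes of the HoxA cluster are known for high expression in stem and progenitor cells, and Hoxa9 for its role in stem cell self-renewal and in leukaemia. Hox proteins bind DNA together with TALE homeodomain partners of the Meis and Pbx families, and their genes are held on by trithorax-type proteins such as Kmt2a and held off by Polycomb proteins.

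In these cells the HoxA cluster carried most of the Hox RNA, and Hoxa7, Hoxa9 and Hoxa10 carried most of that. The 39 genes held 63201 counts over the 20 libraries, of which 59164 were from HoxA, 3443 from HoxB, 493 from HoxC and 101 from HoxD. Hoxa7, Hoxa9 and Hoxa10 alone held 54311 of them, or 85.9%. Counts grow with gene length, and per kb of exon these 3 genes made up 60.1% to 91% of the Hox level by library, and HoxA 73.7% to 97.1%. A stretch upstream of a start site is shown for each of these, since neighbouring genes of 1 cluster carried most of the signal and differed in how they varied between the groups. The promoter table, from RefSeq on GRCm38.p6, held 22 of the 39 genes, and Hoxb5, Hoxb7 and Hoxc6 were not among them. The sequences read 5' to 3' on the minus strand and stop before the first transcribed base or the first annotated exon, and all 3 lie between exons of longer annotated transcripts of the same gene. Capitals mark the homeodomain core TAAT on either strand.

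Hoxa7: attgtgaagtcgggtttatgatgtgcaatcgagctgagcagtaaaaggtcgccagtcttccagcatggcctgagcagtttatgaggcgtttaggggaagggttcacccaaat

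Hoxa9: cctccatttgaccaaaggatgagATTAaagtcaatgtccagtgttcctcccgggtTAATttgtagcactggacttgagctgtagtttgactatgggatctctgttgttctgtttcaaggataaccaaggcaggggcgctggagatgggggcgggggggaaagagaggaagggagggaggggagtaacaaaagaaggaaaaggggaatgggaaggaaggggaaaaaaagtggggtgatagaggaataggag

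Hoxa10: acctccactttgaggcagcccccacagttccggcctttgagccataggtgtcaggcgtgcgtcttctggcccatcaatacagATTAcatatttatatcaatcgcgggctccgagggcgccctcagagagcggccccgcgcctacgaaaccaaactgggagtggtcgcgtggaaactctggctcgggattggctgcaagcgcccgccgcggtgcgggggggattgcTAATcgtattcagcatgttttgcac

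The Hoxa7 stretch was chr6:52218712-52218823, the Hoxa9 stretch chr6:52227371-52227620 and the Hoxa10 stretch chr6:52234940-52235189. The TAAT core occurred 0 times in the 112 bases of Hoxa7, 2 times in the 250 bases of Hoxa9 and 2 times in the 250 bases of Hoxa10. In the whole 300-base windows, TAAT was in 19 of 24 windows of Hox genes (79.2%) and in 58% of all 32851 promoter windows. The Hox-Pbx motif TGATNNAT was in 4 of the 24 windows (16.7%) against 8.85% of all, and the Meis motif TGACAG in 2 of 24 (8.33%) against 19.2%, each searched on both strands. No window of Hoxa7, Hoxa9 or Hoxa10 held either of these. CpG pairs numbered 9 in the Hoxa7 window, 4 in that of Hoxa9 and 21 in the Hoxa10 window printed here, against a median of 14.5 over the Hox windows and 7 over all windows. Windows hold several motifs by their base composition alone, and these matches are descriptions of letters, not of binding.

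Levels are given in CPM, counts scaled to a common library size with edgeR's TMM factors, and levels of single genes are ranked against each other as CPM per kb of exon. Over the 20 libraries Hoxa10 stood highest at 12.5 CPM per kb, then Hoxa9 at 11.4 and Hoxa7 at 8.27. Hoxa5 followed at 2.83, Hoxb5 at 1.64, Hoxa6 at 1.36 and Hoxa2 at 0.692. The exon length was 5580 bases for Hoxa9 and 3270 for Hoxa10, and which transcripts these cells use was not tested. By CPM without length, Hoxa9 had a higher mean than Hoxa10 over the 20 libraries and in both HSC groups. Which of them leads within a group therefore depends on the lengths used. A fixed length cancels when their ratio is compared between groups. Hoxa10 led per kb in all 5 Lepr- HSC libraries and in 4 of 5 Lepr+ HSC libraries, whereas Hoxa9 led in 4 of 5 libraries of each MPP group. The ratio of Hoxa9 to Hoxa10 per kb had a median of 0.839 in Lepr- HSC (0.21 to 0.947), 0.821 in Lepr+ HSC (0.341 to 1.04), 1.48 in Lepr- MPP (0.652 to 1.96) and 1.10 in Lepr+ MPP (0.565 to 1.69), so the ranges of the groups overlapped.

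By position in the clusters, the 16 genes numbered 9 to 13 made up 55.7% ± 12.8 of Hox CPM per kb in Lepr- HSC, 57.5% ± 10.2 in Lepr+ HSC, 61.2% ± 10.7 in Lepr- MPP and 57.0% ± 3.82 in Lepr+ MPP (SD, n = 5). The 12 genes numbered 1 to 4 made up 7.91% ± 3.18, 6.24% ± 2.60, 4.40% ± 1.58 and 4.96% ± 0.966 in the same order. The HoxB share of CPM per kb ran from 7.62% to 16.8% in Lepr- HSC and from 1.77% to 5.42% in Lepr- MPP, which do not overlap. In the Lepr+ groups it ran from 5.89% to 18% in HSC and from 4.69% to 6.46% in MPP, which do overlap. A share falls where other members rise, so the HoxB shares largely restate the Hoxa7, Hoxa9 and Hoxb5 levels given below. Hoxb5, the highest HoxB gene, averaged 2.17 CPM per kb in Lepr- HSC and 0.656 in Lepr- MPP.

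**Figure D1:**
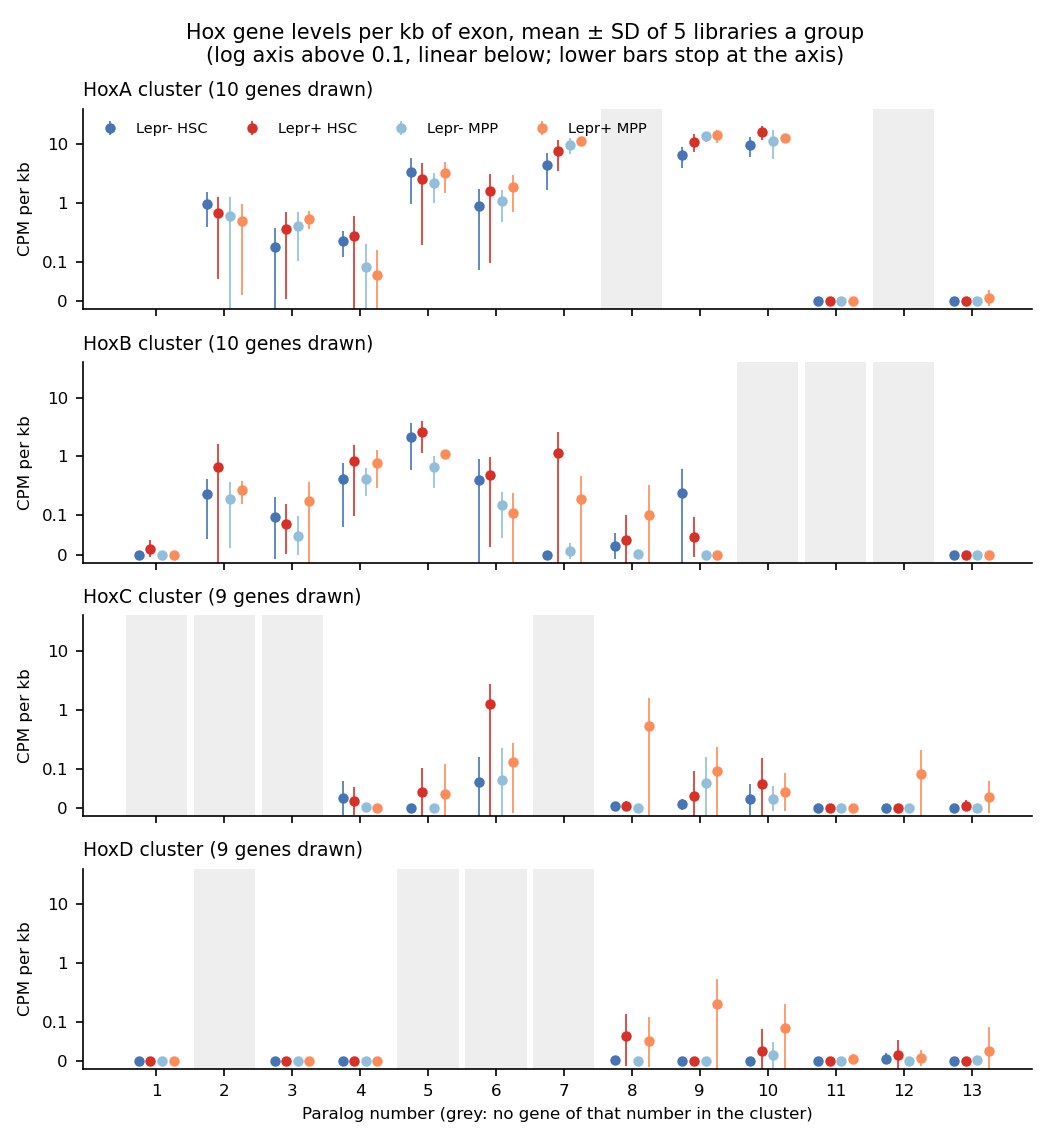
Level of 38 of the 39 Hox genes in CPM per kb of exon (symmetric log axis, linear below 0.1) against paralog number, 1 panel a cluster, with the mean and SD of 5 libraries for each group as points and bars. HoxA genes 5 to 10 hold the high levels, Hoxb5 leads its cluster, and the means of HoxC and HoxD genes stay low in every group.

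Of the 39, 13 reached a mean of 1 CPM in at least 1 group, 20 more had a count but stayed under 1 CPM in every group, and 6 had no count in any library. The 6 were Hoxa11, Hoxb13, Hoxc11, Hoxd1, Hoxd3 and Hoxd4, and 0 counts over the 20 libraries allow a level of up to 0.00715 CPM, a limit that covers counting error only. Of Hoxd3, Hoxd4 and Hoxa11, 62.8%, 52.3% and 35% of the exon bases also belong to other annotated genes. Read pairs there may be given to neither gene, depending on the counting mode, which the sources do not give. The 20 low members were 3 of HoxA, 5 of HoxB, 6 of HoxC and 6 of HoxD, such as Hoxb3, Hoxb9, Hoxc9 and Hoxd8, with between 1 and 242 counts each over all libraries. For testing, 15 members passed the filter on low counts, 8 of HoxA, 6 of HoxB, 1 of HoxC and none of HoxD. The other 24 were not tested in the main fit.

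Libraries held from 9532993 to 31589794 counts in genes. Of the sorted markers, Slamf1, which encodes CD150, averaged 46.6 ± 13.4 CPM in Lepr- HSC and 5.12 ± 3.83 in Lepr- MPP (SD, n = 5). Cd48 RNA was at 14.3 ± 6.59 and 50.6 ± 16.1 CPM, although both gates are CD48-. Flt3, a receptor of progenitors that was not sorted on, was at 19.9 ± 12.7 and 474 ± 147 CPM. Stem cell markers did not separate these groups as a list: 9 of them summed to 899 to 1344 CPM in Lepr- HSC and 827 to 1418 in Lepr- MPP, and Hlf and Procr had higher means in Lepr- MPP, at 411 ± 55.1 against 154 ± 37.3 and 46 ± 9.84 against 30.9 ± 11 CPM. The same 9 summed to 1514 to 1888 CPM in Lepr+ HSC, above every Lepr- HSC library, and to 1017 to 1744 in Lepr+ MPP. The part of this difference in the Hox values by Lepr status was not tested. Summed over 18 marrow stroma markers, which include Lepr itself, the level was 59.8 to 272 CPM in Lepr- HSC, 88.7 to 258 in Lepr+ HSC, 123 to 208 in Lepr- MPP and 253 to 4093 in Lepr+ MPP. Adipoq, Pdgfra, Lum and Ebf3 of that list had no count in Lepr- MPP, and all 18 had counts in both Lepr+ groups. The 8 B cell markers summed to 112 to 279 CPM in Lepr- MPP and 82.4 to 3635 in Lepr+ MPP. The 3 libraries least like their groups were Lepr+ MPP replicates 4 and 5 and Lepr+ HSC replicate 5, and leaving these 3 out is given where a result rests on them.

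The first comparison asked which Hox genes differ between stem cells and progenitors that lack surface Lepr. Hoxa9 fell and no tested Hox gene rose past an adjusted p of 0.05, so 1 of 15 was called, against 2.73% of all 16509 genes, and 1.51% of all genes were called lower. Hoxa9 (ENSMUSG00000038227.15, chr6:52223100-52231089, minus strand) stood at 47.7, 53.3, 28.8, 34.5 and 17.5 CPM in Lepr- HSC replicates 1 to 5. In Lepr- MPP it stood at 98.5, 62.7, 65.6, 79.4 and 74.7 CPM. Every HSC library lay below every MPP library. The means were 36.3 ± 14.4 and 76.2 ± 14.2 CPM (SD, n = 5), a log2 fold change of -1.07 ± 0.28 (SE, edgeR quasi-likelihood test, Benjamini-Hochberg adjusted p = 0.0465). In bulk RNA, fewer cells that express a gene and less RNA per cell cannot be told apart. With replicate number as a block the Hoxa9 value was -1.08 ± 0.26 with an adjusted p of 0.0175. DESeq2 gave Hoxa9 an adjusted p of 0.00929, called 2 of 15 members (Hoxa9 and Hoxb5) and called 4.98% of all genes. At an unadjusted p under 0.05 edgeR had 3 of 15 members, Hoxa9, Hoxb5 and Hoxa7, against 12.3% of all genes.

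The Hoxa9 call sat close to the threshold. It held without Lepr- HSC replicate 1 or 2, Lepr+ HSC replicate 4 or 5, or Lepr+ MPP replicate 4, with the lowest adjusted p at 0.0319. Without any 1 of the other 15 libraries the adjusted p lay between 0.0518 and 0.144, the last without Lepr- MPP replicate 1, and the log2 fold change stayed between -1.25 and -0.89 over all 20 omissions. Without any 1 of the 5 replicate numbers in all groups the call was lost (adjusted p 0.0806 to 0.215). By the date in the file names, the 3 replicates from June gave -1.36 and the 2 from July -0.73, with adjusted p of 0.138 and 0.963. Without the 3 divergent libraries the value was -1.07 and the adjusted p 0.0246.

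Hoxa7 (ENSMUSG00000038236.8, chr6:52214491-52221854, minus strand), the neighbour of Hoxa9, stood at 26, 7.37, 13.1, 8.82 and 7.83 CPM in Lepr- HSC. In Lepr- MPP it stood at 35.7, 31.8, 31.9, 15 and 25.9 CPM. It was lower in HSC in all 5 replicate pairs, but Lepr- HSC replicate 1 reached into the MPP range. The log2 fold change was -1.15 ± 0.43 with an adjusted p of 0.219 in edgeR. With the replicate block it was -1.27 ± 0.35 with an adjusted p of 0.0377, so that 2 of 15 members were lower with the block, against 3.43% of all genes called lower and 7.5% called in either direction in that fit. Of the Hoxa7 exon bases, 20.4% also lie in exons of the antisense gene Hoxaas3, whose own level was 3.01 ± 1.09 CPM in Lepr- HSC and 1.12 ± 0.627 in Lepr- MPP.

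Hoxa10 (ENSMUSG00000000938.11, chr6:52231197-52240854, minus strand) stood at 31.2, 37.2, 17.8, 25.2 and 48.7 CPM in Lepr- HSC. In Lepr- MPP it stood at 29.4, 33.1, 25.9, 71.3 and 28.6 CPM, with replicate 4 apart from the rest. The groups overlapped, and the log2 fold change was -0.23 ± 0.30 with an adjusted p of 0.882 in edgeR.

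Hoxb5 (ENSMUSG00000038700.4, chr11:96303336-96306121, plus strand), known as a marker of long-term stem cells, ran the other way. It stood at 3.61, 4.54, 3.50, 4.71 and 13.9 CPM in Lepr- HSC and at 2.69, 0.910, 1.04, 1.39 and 3.10 CPM in Lepr- MPP. Every HSC library lay above every MPP library. Hoxa9 and Hoxb5 were the 2 members whose ranges did not overlap, and of all genes 6.23% had ranges that did not. The Hoxb5 log2 fold change was 1.73 ± 0.57 with an adjusted p of 0.142 in edgeR, 0.0506 with the replicate block and 0.0106 in DESeq2.

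Among Lepr+ cells the same step from MPP to HSC gave 0 of 15 calls in edgeR, where 0.466% of all genes were called. It also gave 0 of 15 with the replicate block (1.77% of all genes) and in DESeq2 (2.1%). At an unadjusted p under 0.05 there were 2, Hoxb5 at 1.24 ± 0.56 (adjusted p = 0.604) and Hoxc6 at 3.18 ± 1.52 (adjusted p = 0.634, edgeR), against 7.89% of all genes. With Lepr+ HSC replicate 5 and the other 2 divergent libraries left out, the Hoxc6 value was 1.57. Hoxc6 passed the filter on low counts mainly through Lepr+ HSC. Hoxb5 stood at 6.29, 2.62, 5.54, 8.35 and 13.6 CPM in Lepr+ HSC and at 3.10, 2.7, 2.95, 3.96 and 2.7 CPM in Lepr+ MPP, where HSC replicate 2 lay below every MPP library. Hoxa9 averaged 61.5 ± 20.3 CPM in Lepr+ HSC and 79.4 ± 19.6 in Lepr+ MPP, with overlapping ranges and a log2 fold change of -0.37 ± 0.28 (adjusted p = 0.913, edgeR).

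A contrast added after these values were seen took the mean of both HSC to MPP differences, over Lepr- and Lepr+ cells. Hoxb5 was higher in HSC at 1.48 ± 0.40 (adjusted p = 0.0351) and Hoxa9 lower at -0.72 ± 0.20 (adjusted p = 0.0403, edgeR), so 2 of 15 were called against 4.89% of all genes (7.61% in DESeq2, which called the same 2). With the replicate block Hoxa7 also passed, at -0.98 ± 0.25 (adjusted p = 0.0164), making 3 of 15 against 11.9% of all genes. Hoxb5 lost its call without Lepr- HSC replicate 5, where the adjusted p was 0.0905, and in 9 other single omissions. It also lost it without the 3 divergent libraries (1.34, adjusted p = 0.0701) and without the filter on low counts (1.47, adjusted p = 0.0958), where Hoxb9 was called in its place. It was lost without any 1 of the 5 replicate numbers (adjusted p 0.0733 to 0.154), and with the block without number 2, 3 or 5. Hoxa9 lost its call in 15 of 20 single omissions, the highest adjusted p being 0.0861 without Lepr- MPP replicate 1, in 4 of 5 omissions of a replicate number (up to 0.194) and without the filter (0.0644). This contrast shares all its libraries with the 2 comparisons before it and adds no separate evidence.

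**Figure D2:**
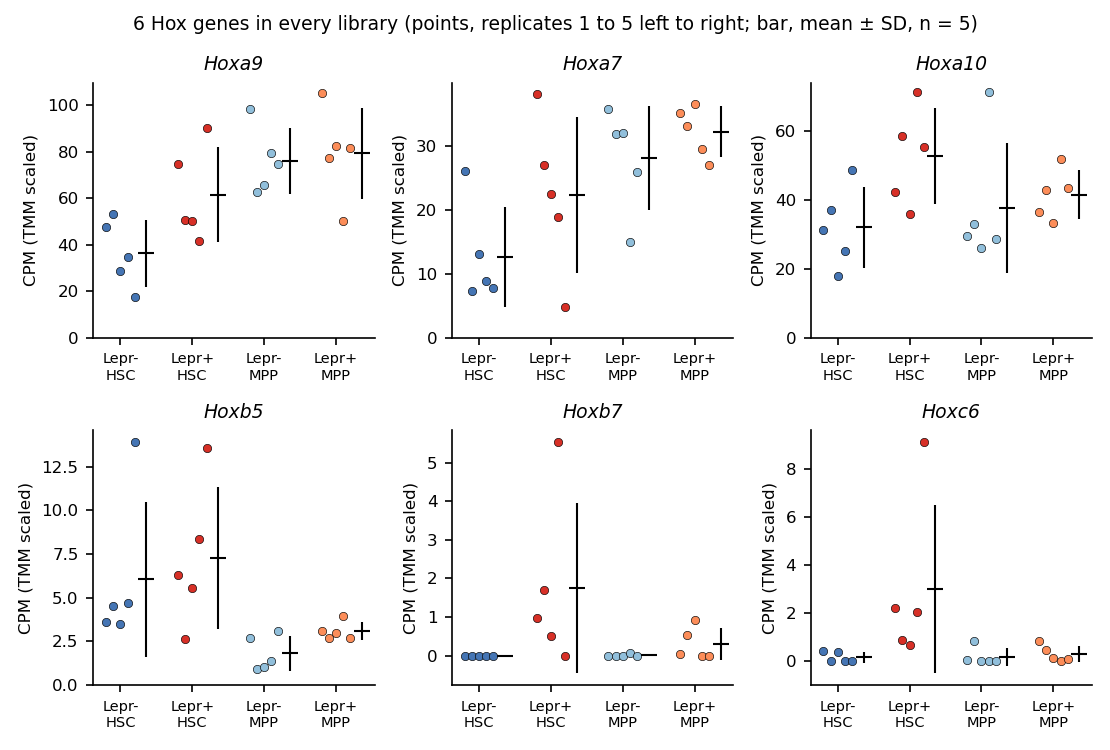
CPM of 6 Hox genes in every library (y axis), by group (x axis), with each point 1 library and the bar beside it the mean and SD of 5. All Lepr- HSC points for Hoxa9 lie below and for Hoxb5 above the Lepr- MPP points, and Hoxb7 is at 0 in all Lepr- HSC.

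The next comparison asked what sets Lepr+ apart from Lepr- stem cells. No Hox gene of 15 passed an adjusted p of 0.05 in edgeR, where 0.103% of all genes did, and 0 passed with the replicate block, where 1.02% of all genes did. DESeq2 called 1 of 15, Hoxb7, against 1.15% of all genes. At an unadjusted p under 0.05 there were 4, all with higher values in Lepr+ HSC, namely Hoxb7, Hoxa9, Hoxc6 and Hoxa10, against 6.96% of all genes. The median log2 fold change over the 15 was 0.76, against -0.0041 over all genes tested, and 11 of the 15 values lay above 0. Between Lepr+ and Lepr- MPP the median was 0.58, against 0.011 over all genes, with 13 of 15 above 0. The 15 include Hoxb7, which passed the filter on low counts through Lepr+ libraries alone, and Hoxc6, which passed it mainly through Lepr+ HSC. Their part in these counts and medians is no separate support, and the 15 were not tested as a set.

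Hoxb7 (ENSMUSG00000038721.8, chr11:96286623-96290162, plus strand) had 0 counts in all 5 Lepr- HSC libraries. In Lepr+ HSC it stood at 0.989, 1.70, 0.522, 5.54 and 0 CPM, or 149 counts, so 4 of 5 libraries held it. Against the limit of 3 counts over the 5 Lepr- HSC libraries it was at least 47.5-fold higher, a bound for counting error only. Replicate 4 held 73 of the counts, and without it the bound was 27.8-fold. The adjusted p was 0.144 in edgeR, 0.122 with the replicate block and 0.0160 in DESeq2. The fitted fold change of a gene at 0 in a group depends on the prior count and is not given as a size.

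In MPP the values lay in the same direction at lower levels and did not pass the threshold. In Lepr+ MPP Hoxb7 stood at 0.0326, 0.525, 0.932, 0 and 0 CPM (45 counts) and in Lepr- MPP it had 1 count, in replicate 4. The ratio was 47.2, with an exact 95% interval of 8.05 to 1905 for counting error only, and the edgeR adjusted p was 0.774. Without replicate 3, which held 30 of the counts, the ratio was 22.5 (3.46 to 946). Counts were thus present in 7 of 10 Lepr+ libraries and in 1 of 10 Lepr- libraries, 194 counts against 1. The mean Lepr effect over both cell types, a contrast added after these values were seen, was past the threshold for Hoxb7 with adjusted p of 0.0322 in edgeR, 0.0430 with the replicate block and 0.00143 in DESeq2. It was the only 1 of 15 members called by each of these, against 0.842%, 2% and 2.41% of all genes. Hoxb7 passed the filter on low counts through Lepr+ libraries alone, and the contrast was chosen on these same values. These p-values therefore add no separate support. Without the 3 divergent libraries the edgeR adjusted p was 0.0185. Those 3 are the only Lepr+ libraries with no Hoxb7 count, so leaving them out raises the Lepr+ mean and is no check of the call. The call was lost without any 1 of 13 libraries (adjusted p up to 0.0749), which were every Lepr- library, Lepr+ HSC replicate 4 and Lepr+ MPP replicates 2 and 3. Within the June replicates the adjusted p was 0.429 and within July 1.00.

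Summed stroma levels overlapped between Lepr+ and Lepr- HSC and lay apart between Lepr+ and Lepr- MPP, and their part in the Hoxb7 values was not tested. Adipoq, which fat and stromal cells express, had 1 count in Lepr- HSC, none in Lepr- MPP, 490 in Lepr+ HSC and 2131 in Lepr+ MPP. In Lepr+ HSC replicates 1 to 5 the stroma sums were 153, 146, 258, 88.7 and 218 CPM. Hoxb7 had 25, 33, 18, 73 and 0 counts in these. In Lepr+ MPP replicates 1 to 5 the stroma sums were 253, 944, 857, 1069 and 4093 CPM. Hoxb7 had 1, 14, 30, 0 and 0 counts there.

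Hoxc6 (ENSMUSG00000001661.5, chr15:102998257-103011881, plus strand) was the only HoxC or HoxD gene to pass the filter on low counts. It passed mainly through Lepr+ HSC, with at least 10 counts in 5 of 5 libraries there and in 2 of 5 of Lepr- HSC. It stood at 2.22, 0.873, 0.696, 2.05 and 9.15 CPM in Lepr+ HSC and at 0.439, 0, 0.368, 0 and 0 CPM in Lepr- HSC. The ranges did not overlap, which was so for 1.62% of all genes in this comparison. As Hoxc6 was tested mainly through the group where it is high, this adds no separate support. The log2 fold change was 4.07 ± 1.58 with an adjusted p of 0.521 in edgeR and 0.153 in DESeq2. Without the 3 divergent libraries, of which Lepr+ HSC replicate 5 is 1, it was 3.04 (adjusted p = 0.637).

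Hoxa9 stood at 74.9, 50.5, 50.3, 41.5 and 90.3 CPM in Lepr+ HSC, above its own Lepr- pair in 4 of 5 replicates, and the log2 fold change was 0.76 ± 0.28 (adjusted p = 0.495, edgeR). Hoxa10 stood at 42.4, 58.7, 35.9, 71.3 and 55.3 CPM there, above its pair in 5 of 5, at 0.72 ± 0.30 (adjusted p = 0.614). Hoxa7 stood at 38.1, 27, 22.4, 18.9 and 4.73 CPM, above its pair in 4 of 5, at 0.82 ± 0.43 (adjusted p = 0.788). Their ranges overlapped between the groups. By date, the Hoxa9 value was 1.21 in June and 0.10 in July. These comparisons and the HSC to MPP comparison use the same Lepr- HSC libraries, so their Hoxa9 values are not independent. The Hox sum over all 39 genes was 102 ± 22.9 CPM in Lepr- HSC, 165 ± 26.5 in Lepr+ HSC, 155 ± 22.1 in Lepr- MPP and 176 ± 20.8 in Lepr+ MPP (SD, n = 5).

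In MPP, Lepr status gave 0 of 15 calls in edgeR, with the block and in DESeq2, where 0.2%, 0.103% and 1.33% of all genes were called. At an unadjusted p under 0.05 there was 1 of 15, Hoxb7, against 4.41% of all genes. Hoxa9, at 105, 77.4, 82.5, 50.1 and 81.8 CPM in Lepr+ MPP, differed from Lepr- MPP by 0.06 ± 0.28, Hoxa7 by 0.20 ± 0.42 and Hoxa10 by 0.14 ± 0.30 (log2). Whether the Lepr effect differed between HSC and MPP was tested as an interaction. It was called for 0 of 15 members, and 0 had an unadjusted p under 0.05 in edgeR, where 3.2% of all genes did and none (0%) was called. The fit with the block also called 0 of 15 (0% of all genes), and so did DESeq2 (0.161%). For Hoxa9 the interaction was 0.70 ± 0.40 (adjusted p = 1.00), so a difference of its Lepr effect between the cell types was not shown.

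**Figure D3:**
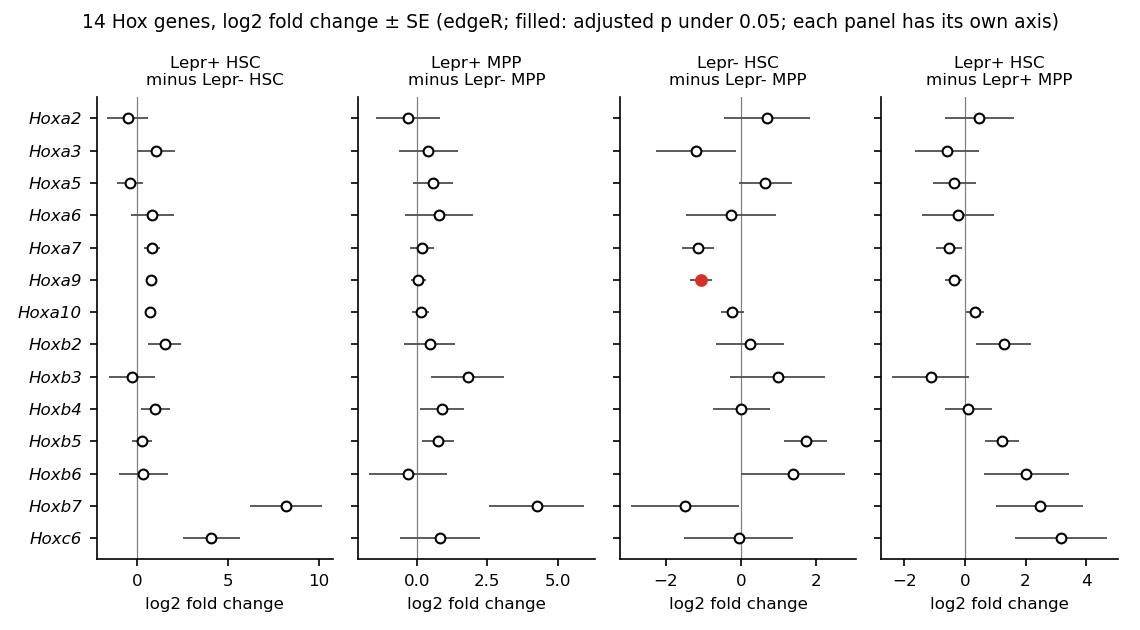
Log2 fold change with its SE (x axis, a separate scale in each panel) for 14 of the 15 tested Hox genes (y axis) in the 4 group comparisons of the edgeR fit. The only filled point, an adjusted p under 0.05, is Hoxa9 in Lepr- HSC against Lepr- MPP, and the wide bars belong to genes of few counts.

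The remaining named members were low and uneven. Hoxa5, whose loss is known to impair lung development, ran from 1.05 CPM in Lepr+ HSC replicate 5 to 11.6 in Lepr- HSC replicate 1, and its group means lay between 4.07 and 6.35 CPM. Hoxa6 had group means of 0.782 to 1.65 CPM, Hoxa2 0.875 to 1.75, Hoxa3 1.07 to 3.3 and Hoxb4 1.08 to 2.17. Hoxb4, known for expanding stem cells when forced on, was higher in the Lepr+ library of the pair in 4 of 5 HSC pairs and 5 of 5 MPP pairs, with adjusted p of 0.998 and 1.00 in edgeR. Hoxa6 had the same numbers of pairs, Hoxa7 and Hoxa9 had 4 of 5 in both cell types, and Hoxa10 had 5 of 5 in HSC and 4 of 5 in MPP. Other members went the other way in HSC, where Hoxa5 and Hoxa2 were higher in 2 pairs and lower in 3. Hoxb3 was higher in 1 HSC pair and lower in 3. The share of all genes with such pairs is not given here. Hoxb2 had group means of 0.675 to 2.31 CPM, the highest resting on Lepr+ HSC replicate 5 at 8.52 CPM, against 0.522 to 0.989 in the other 4 libraries of its group. Hoxb2 and Hoxa3 share 27.3% and 27.1% of their exon bases with other annotated genes.

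HoxC and HoxD genes were rare. In Lepr+ MPP 1 library held most of their sum. Their summed level was 0 to 0.810 CPM in Lepr- HSC, 1.03 to 9.67 in Lepr+ HSC, 0 to 0.986 in Lepr- MPP and 0.220 to 11.6 in Lepr+ MPP. Lepr+ MPP replicate 5, the shallowest library with 9532993 counts, had counts for 25 of the 39 members and for 12 of the 18 HoxC and HoxD members. It was the highest library for 9 members, Hoxa13, Hoxb8, Hoxc5, Hoxc8, Hoxc9, Hoxc13, Hoxd9, Hoxd11 and Hoxd13. Hoxc8 was at 6.97 CPM there and at 0 to 0.311 in the other 4 Lepr+ MPP libraries, and Hoxd9 was at 1.69 CPM there. Without it, the summed HoxC and HoxD level of Lepr+ MPP ran from 0.220 to 1.76 CPM. This library also had the highest stroma sum of all 20, and its part in these values was not tested. In Lepr+ HSC most of each library's sum was Hoxc6, with 17 to 87 counts a library. The higher sums in Lepr+ than in Lepr- HSC thus mostly repeat the Hoxc6 values above.

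**Figure D4:**
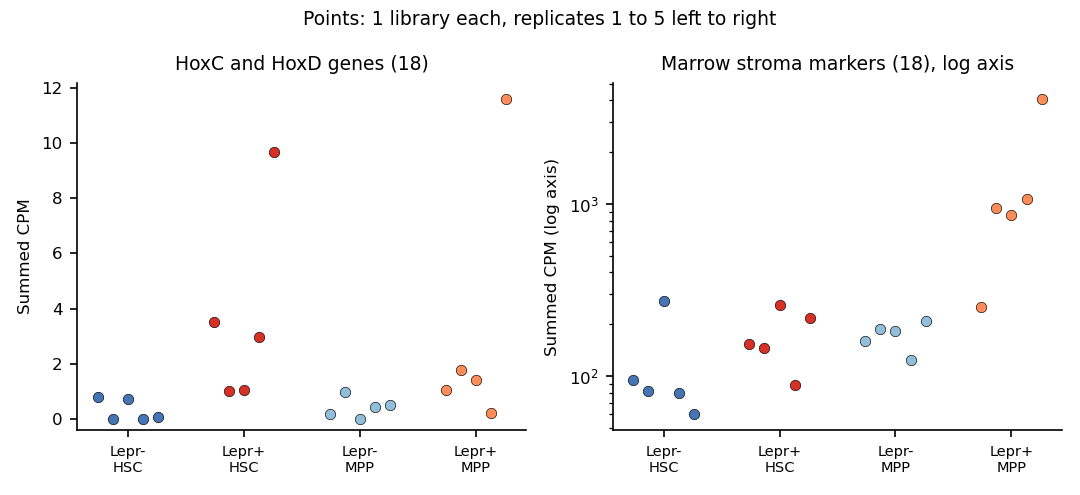
Summed CPM of the 18 HoxC and HoxD genes (left, linear axis) and of the 18 marrow stroma markers (right, log axis) in every library, by group, each point 1 library. Lepr+ MPP replicate 5 is the highest point in both panels, while Lepr+ HSC replicate 5 is high only on the left.

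Members also varied together between libraries of a group. On log2 CPM with group means taken off, over 20 libraries, Hoxa5 and Hoxa6 had a Pearson r of 0.90 and Hoxa7 and Hoxa3 one of 0.73. Hoxa10 moved against Hoxa3 (r = -0.69) and Hoxa6 (r = -0.57). These are descriptions over libraries that share replicate pools and depth: with log2 depth, Hoxa7 had r = 0.63, Hoxa6 0.58, Hoxa10 -0.56 and Hoxb5 -0.53. The Hoxc6 and Hoxb2 pair (r = 0.72, Spearman rho = 0.45) is where Lepr+ HSC replicate 5 was high for both.

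Partners and regulators of Hox genes came next, from lists chosen with earlier results of these data known. Meis1, the partner of Hoxa9 in leukaemia, lay between 331 and 663 CPM in all 20 libraries and was not called in any of the 4 group comparisons.

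Of 17 Cdx and trithorax-type genes 14 were tested and none was called in the 4 group comparisons of the main fit, and Cdx1, Cdx2 and Cdx4 had no counts in any library. With the replicate block Mllt3, a reader protein of the elongation machinery, was higher in Lepr+ than in Lepr- HSC at 1.05 ± 0.21 (adjusted p = 0.0261) and higher in Lepr+ HSC than in Lepr+ MPP at 1.06 ± 0.21 (adjusted p = 0.0160). Its means were 68.8 ± 23.9 CPM in Lepr- HSC and 135 ± 33.9 in Lepr+ HSC. Of 16 Polycomb genes all were tested and none was called in those comparisons of the main fit. With the block Cbx7 was higher in Lepr+ HSC, at 43.4 ± 7.19 against 17.8 ± 5.00 CPM (1.30 ± 0.27, adjusted p = 0.0280), with no overlap, and Cbx8 was lower in Lepr+ HSC than in Lepr+ MPP at -0.94 ± 0.23 (adjusted p = 0.0490). Of all genes, 1.02% were called with the block between Lepr+ and Lepr- HSC and 1.77% between Lepr+ HSC and Lepr+ MPP. Of the 46 other genes annotated inside the clusters, mostly antisense and noncoding, 6 were tested and none was called in either fit.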

How the data were processed

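The authors deposited 1 table of raw read-pair counts per gene for each of the 20 libraries, per the labels and file contents, each ending in lines for unassigned read pairs (21.4% to 38.7% of the total), which were left out here. Non-stranded SMART-Seq v4 and Nextera XT libraries were sequenced as pairs, per the labels' protocols. FastQC 0.11.8, cutadapt 2.1, STAR 2.7.1a, HTSeq 0.11.2, DESeq2 and GRCm38 are named in the submitters' processing notes. The HTSeq mode is not given in the sources used here. Reads without strand cannot tell a gene from an antisense partner on shared exons.

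Symbols and positions came from GENCODE M21, which matched 55480 of 55573 identifiers and all 39 Hox genes. Counts were tested in edgeR 4.0.16 (R 4.3.3) by quasi-likelihood F tests, two-sided, on all 20 libraries with group as the only term, TMM factors, filterByExpr (minimum count 10, minimum total 15) and robust dispersion. P-values were adjusted by Benjamini-Hochberg over 16509 genes, with a threshold of 0.05. DESeq2 1.42.0 was an alternative, with the replicate block, another scaling, no filter, 2 groups only and libraries left out. Co-variation used log2 CPM with a pseudocount of 1. The fit was tested on simulated data.

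Hox genes with a mean of 1 CPM in a group were named with values, and others by counts. The members, lists and named genes were chosen with earlier results of these data known. Some results are not reported here. Lists covered TALE partners, described here by Meis1 alone, Cdx and trithorax-type activators, Polycomb genes, other genes inside the clusters, and markers of marrow stroma, endothelium, erythroid cells, B cells, neutrophils, HSC and MPP. Endothelial markers summed to 57.0 to 316 CPM in the libraries other than Lepr+ MPP and to 210 to 706 there, erythroid markers to 1618 to 3345, B cell markers to 43.2 to 545 in HSC, neutrophil markers to 42.8 to 941, HSC markers to 827 to 1888 over all libraries, and MPP markers to 181 to 290 in HSC and 846 to 2397 in MPP.

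Replicate numbers come from the titles, and each number carried 1 date in the file names in all 4 groups, with 2 mice for each replicate per the design text, so they were taken to pair the libraries. Same-number libraries correlated in their deviations at a median of 0.366 (30 pairs, -0.103 to 0.622), and different numbers at -0.144 (120 pairs). Nothing ties the samples to single animals, so p-values reflect sample-to-sample spread, and intervals cover counting error only, since reads carry no molecular identifiers.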

Additional observations from a re-analysis of the deposited data

Results flagged for a closer look

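In 12 of 50 sets of 5 libraries tested (13 genes in 4 groups, leaving out sets all at 0), 1 library stood apart from the other 4, by a gap over 0.71 of the range. Chance flags about 1 in 20 sets of normally spread values. In the 3 sets where only 1 library had a count (Hoxb7 in Lepr- MPP, Hoxc8 in both HSC groups) the gap equals the whole range by construction, so that rate does not apply to them.

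Lepr- MPP replicate 4 accounted for 4 of them. Hoxa10 was at 71.3 CPM there against 25.9 to 33.1 in the other 4 Lepr- MPP libraries, Hoxa2 at 3.14 CPM against 0.189 to 1.01, Hoxa6 at 0 against 1.08 to 1.32, and Hoxb7 at 0.0697 CPM, 1 count, against 0. Lepr+ HSC replicate 5 was high for Hoxb2, at 8.52 CPM against 0.522 to 0.989, and for Hoxc6, at 9.15 CPM against 0.696 to 2.22. Lepr+ MPP replicate 5 was high for Hoxc8, at 6.97 CPM against 0 to 0.311. Hoxb5 was at 13.9 CPM in Lepr- HSC replicate 5 against 3.50 to 4.71. Hoxb2 was at 1.61 CPM in Lepr+ MPP replicate 2 against 0.675 to 0.816, and Hoxc6 at 0.834 CPM in Lepr- MPP replicate 2 against 0 to 0.0378. Hoxc8 was at 0.0675 CPM in Lepr- HSC replicate 1 and at 0.0791 CPM in Lepr+ HSC replicate 1, 2 counts each, against 0 in the rest of their groups.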

How the results depend on the processing

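All 551 log2 fold changes recomputed under the alternatives, for 15 pairs of gene and comparison, kept their direction, and all 52 group means moved by less than 1 SD under DESeq2 size factors. Of the counts of called Hox genes, that of 1 lower gene between Lepr- HSC and Lepr- MPP became 0 without the filter, with 2 groups only and within June or July dates, 2 with the replicate block, and 0 to 1 with single libraries left out. It was 0 without any 1 of the 5 replicate numbers (Hoxa9 adjusted p 0.0806 to 0.215). With the replicate block and 1 number left out, a combination added later, it was 0 without number 1 or 3 and 2 without number 5. DESeq2 called 1 higher gene there (Hoxb5) and 1 between Lepr+ and Lepr- HSC (Hoxb7), where edgeR called 0.

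For the contrasts added after seeing the data, the 1 gene higher for mean Lepr status (Hoxb7) became 0 by month, 0 with the replicate block without any 1 number, and 0 to 1 over single omissions, and Hoxb7 failed the filter without 2 of the 5 numbers. The 1 gene higher in mean HSC against MPP (Hoxb5) was another gene without the filter (Hoxb9), and became 0 by month, 0 without the 3 libraries least like their groups, 0 with the block without number 3 or 5, and 0 to 1 over omissions. With the block without number 2, Hoxc6 was called in place of Hoxb5. The 1 gene lower there became 0 without the filter and by month, 2 with the replicate block, 0 (without number 3) or 2 (without 4 or 5) with the block, and 0 to 2 over omissions. Where fewer libraries were fitted, the test had fewer samples; other causes were not tested. The block changed no other Hox call. The 24 members under the filter on low counts enter no comparison other than the fit without it.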
